A study of Mus musculus with 7 samples.

Results

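Interferon-stimulated genes are the genes that cells switch on in answer to interferons, the secreted proteins that announce viral infection. A list of 43 such mouse genes was followed across all 7 arrays of a study of Utx in reprogramming. A gene counted as measured where the platform annotation gave it as the only symbol of an array row, and 36 of the 43 were, out of 13562 genes measured in all. The 7 without such a row were Oas3, Isg15, Mx2, Rsad2, Cmpk2, Ifi44 and Gbp2, the last having only a row shared with another gene. Each measured member had 1 row. By role, 7 members were sensors of foreign RNA or DNA, 14 were signalling factors and regulators, 11 were effectors and 4 served antigen processing.

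Each condition was profiled on 1 Affymetrix array, so differences between 2 arrays carry no p-value and were not checked on replicates. The arrays held Utx knockout (KO, Utx -/Y) and wild-type (WT, Utx +/Y) V6.5 embryonic stem cells (ESCs). Nanog-/- fibroblasts, made from Nanog-/- ESCs, had been transduced with a lentivirus carrying the factors Oct4, Sox2, Klf4 and Myc (OSKM) for 8 days. V19-OSKM mouse embryonic fibroblasts (MEFs), in which doxycycline (DOX) switches on OSKM, were profiled with DOX and without it, each as Utx -/Y (KO) and Utx +/Y (WT). All samples carry the same ESC growth medium in the labels, which give neither the length of the DOX treatment nor the number of cultures or animals behind an array.

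In the textbook pathway, RNA sensors such as Ddx58 (RIG-I) and Ifih1 (MDA5) lead to secretion of type I interferon, whose receptor acts through the kinases Jak1 and Tyk2. Transcription factors that include Stat2 and Irf9 then bind the interferon-stimulated response element (ISRE) in the promoters of target genes. Type II interferon, the product of Ifng, acts instead through gamma-activated sites (GAS) in promoters, and it is best known for raising antigen processing genes. Pluripotent cells are known for a weak interferon response, while fibroblasts and macrophages respond strongly.

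All levels below are the authors' log2 values after each array was shifted so that its median equals the mean median of the 6 Utx arrays. The deposited medians were 7.68 to 7.84 on those arrays and 8.55 on the Nanog KO array. Differences are on the same log2 scale. A gene counts as 2-fold apart where its difference reached 1 and its higher array exceeded a floor of 7.23, the 40th percentile of the aligned values. Where the lower array lay under the floor, the fold is given as at least the fold above the floor. On some array 32 of the 36 members exceeded the floor, while Dhx58, Parp14, Ifit2 and Gbp3 did not.

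Facts of the arrays that bear on what follows concern the labels and the cell makeup. Kdm6a, the gene of Utx, was lower in the library labelled KO in all 3 contexts, with differences of -1.18 (ESCs), -1.77 (MEFs, no DOX) and -1.34 (MEFs, DOX). Whether its probes lie in the deleted part is unknown here. Pou5f1, which encodes the induced factor Oct4, read 5.12 in the MEFs labelled KO with DOX and 11.37 in the MEFs labelled KO without DOX, against 12.57 in WT MEFs with DOX and 8.17 in WT MEFs without DOX. The 2 MEF libraries labelled KO thus go against their DOX labels for this gene, and they are named here by label only. Across array rows, which are not independent replicates, MEFs labelled KO with DOX correlated at r = 0.842 with WT MEFs with DOX and at 0.972 with WT MEFs without DOX. MEFs labelled KO without DOX correlated at 0.864 with WT MEFs with DOX and at 0.921 with WT MEFs without DOX. Of 11 epithelial markers measured, 0 lay above the floor in MEFs labelled KO with DOX and 11 in WT MEFs with DOX, against 5 in MEFs labelled KO without DOX and 0 in WT MEFs without DOX. This bears on each comparison that uses a MEF library labelled KO. Nanog read under the floor in the Nanog KO fibroblasts (5.80) and also in WT MEFs with DOX (5.45), so it does not check that genotype. Of 20 macrophage markers 19 were measured. Above the floor were 10 in the Nanog KO fibroblasts, 8 in MEFs labelled KO with DOX, 2 in WT MEFs with DOX, 5 in MEFs labelled KO without DOX and 18 in WT MEFs without DOX. The ESCs had 2, Cd68 and Laptm5, on both arrays.

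Promoter sequence is shown for 6 members, 4 effectors chosen because they hold the letters described here and 2 antigen processing members set beside them. The stretches come from RefSeq promoters of mouse build GRCm38.p6, end at the base before the gene start and are written 5′ to 3′ on the gene's strand. Capitals mark ISRE letters, which are GAAA, any 2 bases and GAAA again on either strand, and GAS letters, TTCNNNGAA, which read the same on both strands. Ifit1 (chr19:34640719-34640888, plus strand), Ifit3 (chr19:34583359-34583528, plus strand), Gbp3 (chr3:142559874-142560043, plus strand) and Bst2 (chr8:71537473-71537642, minus strand) hold ISRE letters. In Bst2 a GAS match overlaps the ISRE letters. Psmb8 (chr17:34198025-34198194, plus strand) holds GAS letters alone. Tap1 (chr17:34187331-34187555, plus strand) starts 226 bases from Psmb9, which runs the other way, so the stretch shown lies between both gene starts.
Ifit1: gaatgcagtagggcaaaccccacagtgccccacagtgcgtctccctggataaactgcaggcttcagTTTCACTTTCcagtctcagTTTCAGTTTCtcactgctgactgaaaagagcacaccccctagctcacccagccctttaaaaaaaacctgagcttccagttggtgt
Ifit3: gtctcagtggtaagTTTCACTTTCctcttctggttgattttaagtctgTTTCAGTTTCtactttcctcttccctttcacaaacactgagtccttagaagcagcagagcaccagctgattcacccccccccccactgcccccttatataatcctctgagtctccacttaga
Gbp3: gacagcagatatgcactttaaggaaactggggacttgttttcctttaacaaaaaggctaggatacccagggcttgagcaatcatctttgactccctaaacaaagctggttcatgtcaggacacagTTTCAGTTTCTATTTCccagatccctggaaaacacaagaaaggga
Bst2: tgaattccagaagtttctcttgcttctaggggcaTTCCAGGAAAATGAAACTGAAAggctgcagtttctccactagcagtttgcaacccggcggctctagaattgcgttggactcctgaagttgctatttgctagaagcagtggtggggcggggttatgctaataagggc
Psmb8: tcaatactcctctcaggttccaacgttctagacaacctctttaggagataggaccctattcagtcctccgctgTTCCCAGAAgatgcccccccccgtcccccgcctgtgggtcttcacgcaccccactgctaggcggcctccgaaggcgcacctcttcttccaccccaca
Tap1: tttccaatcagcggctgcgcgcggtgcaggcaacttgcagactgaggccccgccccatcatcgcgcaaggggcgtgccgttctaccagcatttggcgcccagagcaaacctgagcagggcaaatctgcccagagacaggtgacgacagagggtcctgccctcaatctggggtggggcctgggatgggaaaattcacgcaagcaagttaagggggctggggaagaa

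RefSeq promoter windows of 300 bases, 250 before the gene start and 50 after it, were found for 29 of the 36 measured members. ISRE letters stood in 12 of these 29, among them the sensors Ddx58, Eif2ak2, Ifih1 and Oas1a, the regulators Stat2, Trim21 and Trim30a, and the effectors Ifit1, Ifit3, Gbp3, Bst2 and Ifitm3. Of the 10731 genes on the arrays with a promoter entry, 3.40% had them, and so had 3.44% of all 32851 promoters. Oasl2, Samd9l, Xaf1, Lgals3bp and Ifit2, also effectors, had no ISRE letters in this window. None of the 4 antigen processing members had ISRE letters in this window. GAS letters stood in 8 of the 29, against 7.91% of the array genes, and Psmb8 and Irf1 were among the 8. A match is a description of the letters and not a bound site.

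**Figure D1:**
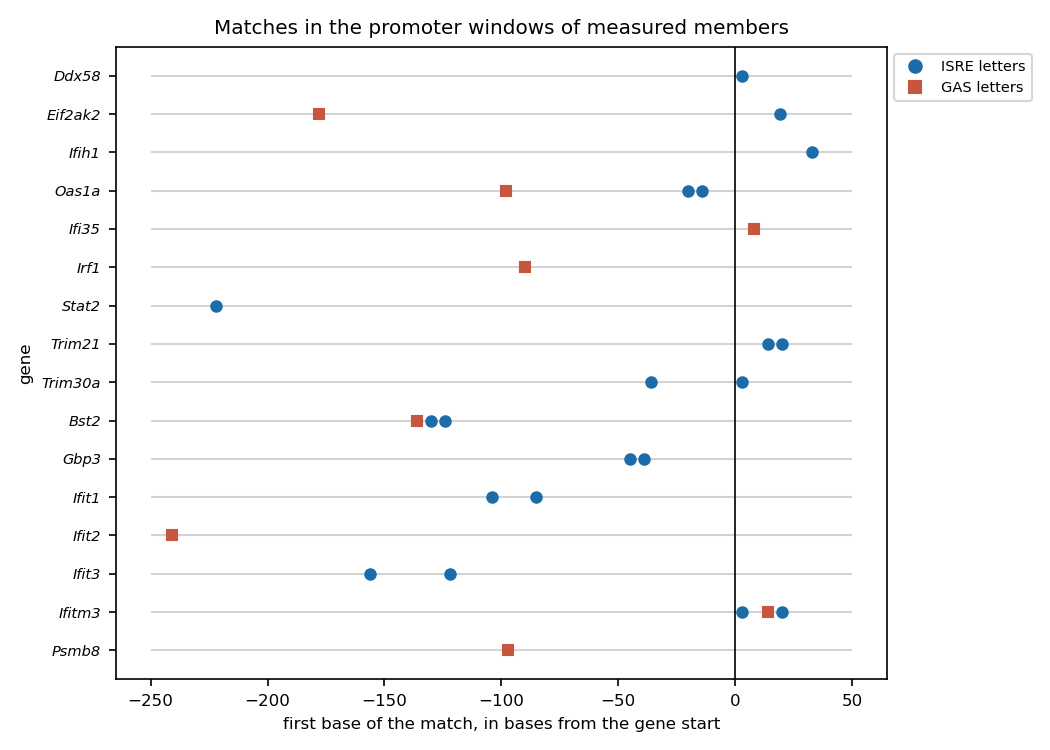
First base of each ISRE match (circles) and GAS match (squares) in the promoter windows of the 16 measured members that have any, in bases from the gene start (vertical line). Among ISRE matches that of Stat2 lies farthest from the start (-222), among GAS matches that of Ifit2 (-241), and in the antigen processing class a single GAS match in Psmb8 is the only mark.

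Across the 7 arrays the members formed a graded pattern. The median level of the 36 members was 5.85 in KO ESCs and 6.36 in WT ESCs. It was 8.38 in the Nanog KO fibroblasts, 7.36 in MEFs labelled KO with DOX, 6.503 in WT MEFs with DOX, 6.71 in MEFs labelled KO without DOX and 7.60 in WT MEFs without DOX. Of the 36 members, 31 (86.1%) had their highest value in the Nanog KO fibroblasts, whereas 15.2% of all 13562 genes did. The exceptions were Eif2ak2, highest in MEFs labelled KO with DOX, Bst2 and Ifitm3, highest in WT MEFs without DOX, and Trim25 and Xaf1, highest in KO ESCs. The lowest value fell in an ESC library for 19 members and in WT MEFs with DOX for 11. The members were chosen with earlier results of these data known. Here and below, the shares of all genes set beside their counts are therefore a description only.

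**Figure D2:**
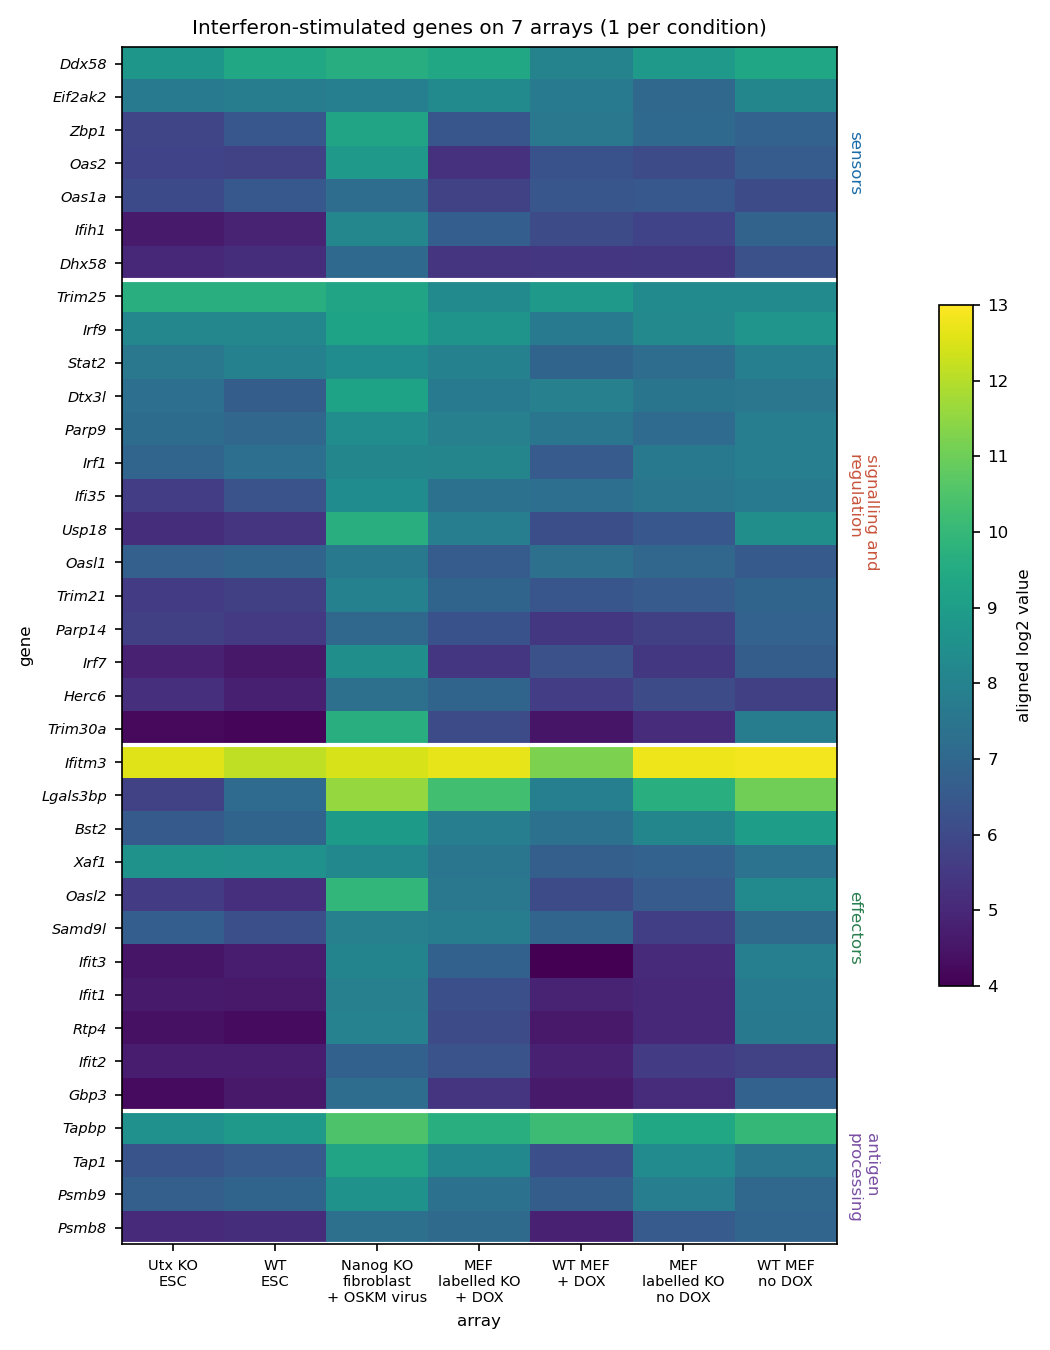
Aligned log2 value of each of the 36 measured members (rows, grouped by role) on each of the 7 arrays (columns). The Nanog KO column is the brightest for 31 members, and the Ifit genes, Rtp4 and Trim30a are dark in ESCs and in WT MEFs with DOX.

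The members with the widest range were Lgals3bp, a secreted glycoprotein gene, with 5.83 between its extremes, Trim30a with 5.52, Oasl2 with 4.74, Usp18 with 4.47 and Ifit3 with 4.06. The narrowest were Oasl1 with 1.10 and Eif2ak2, which encodes the RNA-activated kinase PKR, with 1.24. Sensors had class medians of 5.89 to 6.83 on the 6 Utx arrays. On the same 6 arrays the effector medians spanned 5.20 to 7.72. In these bulk samples fewer expressing cells and less RNA per cell cannot be told apart. Probe sets of genes with close relatives, such as Oas1a, Ifit3, Trim30a, Gbp3 and Ifitm3, may also report those relatives.

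**Figure D3:**
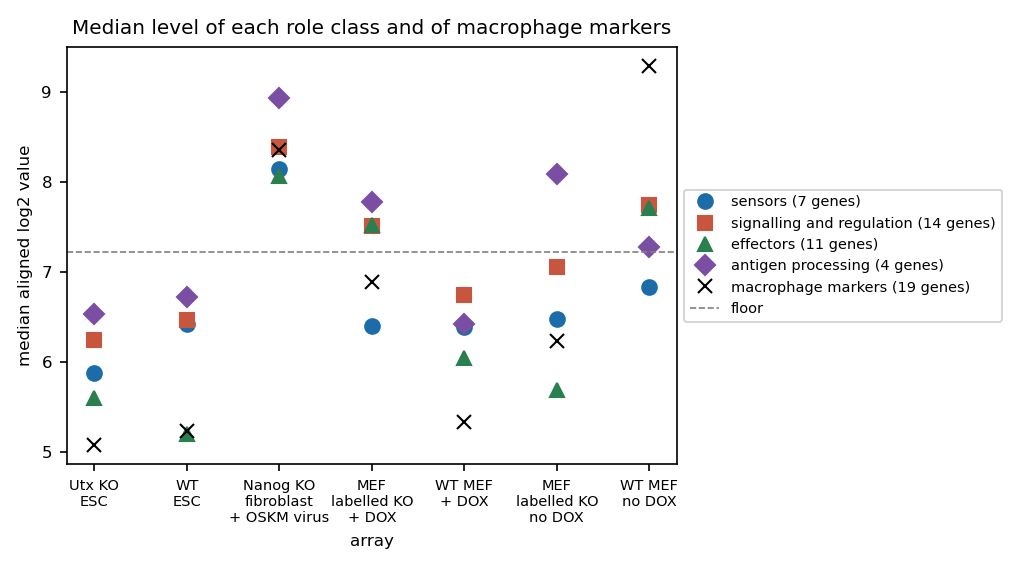
Median aligned log2 value of each role class (colours) and of 19 macrophage markers (crosses) on each array, with the floor as a dashed line. Macrophage markers are highest in WT MEFs without DOX (9.29), while all 4 role classes are highest in the Nanog KO fibroblasts.

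ESCs had lower values than MEFs for several members and higher values for 2. Trim25, a ubiquitin ligase that activates RIG-I, read 9.68 in KO and 9.65 in WT ESCs. In MEFs it read 8.29 (labelled KO) and 8.84 (WT) with DOX, and 8.32 (labelled KO) and 8.31 (WT) without. Xaf1, an effector linked to cell death, averaged 8.60 ± 0.05 in ESCs (SD, n = 2) and 7.13 ± 0.41 in MEFs (SD, n = 4). In neither gene did the ESC and MEF values overlap.

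Lower in ESCs were Ifi35, Tapbp and Lgals3bp, again with no overlap. Ifi35, which encodes an interferon-induced leucine zipper protein, averaged 5.96 ± 0.46 in ESCs and 7.47 ± 0.20 in MEFs. Tapbp (tapasin), which loads peptides on class I molecules, averaged 8.71 ± 0.23 in ESCs and 9.80 ± 0.36 in MEFs. Lgals3bp averaged 6.46 ± 0.996 in ESCs and 9.72 ± 1.34 in MEFs (SD, n = 2 and n = 4 throughout).

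These 5 were the members called by limma over all genes with Benjamini-Hochberg adjustment, in which arrays of different genotype and DOX state stood for the spread within a cell type. The differences, ESC minus MEF, with adjusted p, were 1.23 (0.0148) for Trim25, 1.47 (0.0208) for Xaf1, -1.51 (0.0189) for Ifi35, -1.09 (0.0321) for Tapbp and -3.26 (0.0416) for Lgals3bp. Of 25 members tested, 2 were higher and 3 lower, against 12.7% higher and 11.5% lower among all 10957 genes tested, so the members' share lay near the background. The count rests on single libraries. Without KO ESCs or without WT ESCs 0 members passed, and without both MEF libraries labelled KO 1 did (lower). Without WT MEFs without DOX, or without MEFs labelled KO with DOX, 0 were lower, while without WT MEFs with DOX 9 were lower.

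Members that missed the threshold included some that varied widely among the MEF arrays. Usp18, the protease that removes Isg15 and dampens the interferon receptor, averaged 5.29 ± 0.14 in ESCs and 7.22 ± 1.09 in MEFs. The difference of -1.94 had an adjusted p of 0.0887 by limma. For Ifit1, an RNA-binding antiviral effector, the averages were 4.62 ± 0.03 in ESCs and 5.95 ± 1.32 in MEFs (adjusted p = 0.327 by limma). In both genes all 4 MEF arrays lay above both ESC arrays. For Ifit1 only WT MEFs without DOX (7.72) exceeded the floor among them, so the separation of the other MEF arrays lies under it. Among other members that missed the threshold, Bst2, Oasl2, Rtp4, Trim30a and Dtx3l did not overlap either. Rtp4 and Trim30a, like Ifit1, exceeded the floor on the Utx arrays only in WT MEFs without DOX. Overlap was seen for others, such as Ifit3, Samd9l, Tap1, Irf1 and Zbp1. The share of all genes without overlap was not determined, so non-overlap here and above is a description only.

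Set against WT MEFs without DOX alone, WT ESCs had 10 of 21 members at least 2-fold lower and 2 higher, counting those over the floor, where 19.7% and 14.7% of all genes were. The lower ones were Lgals3bp (at least 14.0-fold), Trim30a, Rtp4, Ifit3, Ifit1, Usp18, Oasl2, Bst2, Ifi35 and Tapbp, and the higher ones Trim25 (2.54-fold) and Xaf1 (2.19-fold). Signalling factors were split. Irf7, the interferon-induced transcription factor that amplifies interferon production, differed by -2.05, with both arrays under the floor, against -0.55 for Irf9 and 0.06 for Stat2. Ifih1 differed by -1.99 and Psmb8, an immunoproteasome subunit, by -1.76, also with both arrays under the floor. Tap1, a subunit of the peptide transporter, differed by -0.97. Macrophage markers differed as well, 16 of 18 above the floor being lower in WT ESCs. Their part in the result was not tested.

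Receptor and kinase genes upstream of the members were also tested between the cell types. Of 9 receptor and JAK-STAT genes tested in the same limma fit, 6 were lower in ESCs and 0 higher, with 11.5% lower among all genes. They were Ifngr1, a receptor chain for type II interferon, at -2.47 (adjusted p = 0.00769 by limma), Jak2 at -2.48, Il10rb at -2.14, Jak1 at -1.38, and the type I receptor chains Ifnar2 at -1.34 and Ifnar1 at -1.07. Ifngr1 read 6.70 in KO and 6.49 in WT ESCs, against 8.40 to 9.54 in the 4 MEF libraries. Without KO ESCs 0 of the 9 passed and without WT ESCs 1 did, while leaving out 1 MEF library gave 5 to 8.

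Inducers, restrainers and further targets were tested in the same way. Of 9 inducers and adaptors tested, 4 were lower in ESCs, namely Ikbke, Myd88, Rela and Ticam1. The count was 0 without either ESC library, 1 without MEFs labelled KO with DOX, 1 without both MEF libraries labelled KO and 2 without WT MEFs without DOX. Of 10 negative regulators tested, 0 were higher in ESCs and 1 was lower, near the background of 11.5% lower among all genes. Their median difference was -0.17. The lower one was Irf2, which restrains interferon targets. Irf2 averaged 5.90 ± 0.22 in ESCs and 9.01 ± 0.12 in MEFs (SD, n = 2 and n = 4), a difference of -3.10 (adjusted p = 0.00122 by limma). Among 22 further interferon-induced genes tested, 6 were lower in ESCs and 3 higher, against 11.5% lower and 12.7% higher among all genes. Without KO ESCs 0 were lower and 0 higher, without WT ESCs 0 and 1, and without WT MEFs with DOX 12 and 3. Without both MEF libraries labelled KO 1 was lower and 2 were higher, and without WT MEFs without DOX, or without MEFs labelled KO with DOX, 4 were lower. The higher ones were Phf11d at 3.22, Pml, the nuclear body scaffold, at 1.75, and the retrovirus restriction factor Apobec3 at 1.46.

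Between KO and WT ESCs no member over the floor was 2-fold apart. Of those 10 members, 0 were higher and 0 lower, where 0.625% of all genes were higher and 3.45% lower. The members' share thus lay near the background. The median of the 36 differences was -0.10, and 21 were below 0. Ifit1 read 4.65 in KO and 4.60 in WT ESCs, Irf9 read 8.15 on both, and Stat2, the partner of Irf9, read 7.59 in KO and 7.95 in WT. All of these pairs lay close together.

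Sensor differences, KO minus WT ESCs, were below 0 for 6 of 7, with a class median of -0.25. Only 2 of the 7, Ddx58 and Eif2ak2, lay above the floor, so most of these signs rest on values under it. Ddx58 differed by -0.60 and Eif2ak2 by -0.03. Under the floor on both arrays, Zbp1, a sensor of Z-form nucleic acid, differed by -0.54 and Ifih1 by -0.25. Other members, also under the floor on both arrays, were at 0.23 for Irf7, -0.08 for Psmb8 and -0.24 for Tap1. Lgals3bp read 5.75 in KO and 7.16 in WT ESCs, a difference of -1.41, with both values under the floor. Outside the members, Lgals9 (at least 1.16-fold) and Ifngr2, a type II receptor chain (2.24-fold), were lower in KO ESCs. Fibroblast markers were at least 2-fold lower in KO ESCs for 7 of 8 over the floor, and their part in these values was not tested.

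**Figure D4:**
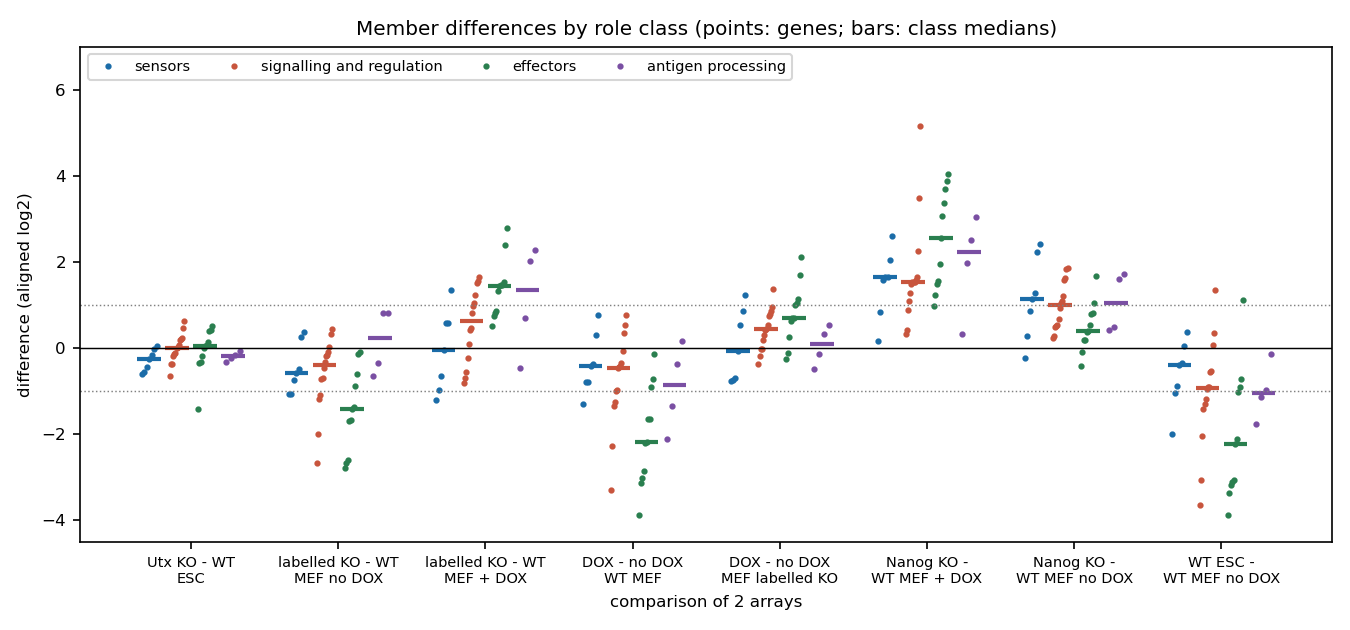
Difference of each member (points) and the class median (bars) in 8 comparisons of 2 arrays, on the aligned log2 scale, with dotted lines at 2-fold. Between KO and WT ESCs the points run from -1.41 (Lgals3bp, under the floor on both arrays) to 0.63. Effectors spread to -3.87 with DOX in WT MEFs, and all 36 members lie above 0 for the Nanog KO fibroblasts against WT MEFs with DOX.

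In WT MEFs the members were lower with DOX than without. Of 23 members over the floor, DOX went with at least 2-fold lower values for 13 and higher values for 0, where 13.7% of all genes were lower and 11.7% higher. The median difference over the 36 members was -0.84, against 0.00 over all genes. Effectors had the lowest class median, -2.17 over 11 members, all below 0. No library labelled KO enters this comparison.

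Ifit3, like Ifit1 an antiviral effector, read 4.01 in WT MEFs with DOX and 7.89 without. Rtp4, a receptor-transporting protein with antiviral activity, read 4.60 with DOX and 7.62 without. Trim30a, a TRIM protein that restrains inflammatory signalling in mice, read 4.50 with DOX and 7.80 without. Each of these 3 genes lay above the floor without DOX and far under it with DOX, so the folds are at least 1.58 for Ifit3, 1.32 for Rtp4 and 1.48 for Trim30a.

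Members measured above the floor on both arrays give full folds. Lgals3bp was 8.83-fold lower with DOX, Bst2 (tetherin), which holds budding virus at the cell surface, 3.12-fold, Ifitm3, which blocks virus entry, 3.11-fold, Ddx58 2.46-fold and Irf9 2.01-fold. Usp18 (-2.27), Oasl2 (-2.21), Ifit1 (-2.87), Irf1 (-1.25) and Tap1 (-1.34) completed the 13. Psmb8 (-2.10), Ifih1 (-0.78) and Irf7 (-0.41) lay under the floor on both arrays, and Stat2 differed by -0.98. Zbp1 and Oasl1, each at 0.77, were the members with the highest positive differences.

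The macrophage markers differed in the same direction. DOX went with at least 2-fold lower values for 17 of 18 over the floor, and their log2 summed level was 10.91 with DOX and 14.21 without. Adgre1, a surface receptor of macrophages, read 4.16 with DOX and 9.89 without, and Csf1r read 5.41 and 9.13, the first in WT MEFs with DOX in both cases. Fibroblast markers were lower too (10 of 12), and epithelial markers were at least 2-fold higher with DOX in 11 of 11 cases, with a median difference of 5.44. The part of these cells in the members' difference was not tested. Among 20 further interferon-induced genes above the floor, 8 were lower, led by the chemokine Ccl5 at -4.77, and Ifngr2 (6.42-fold) and Stat3 (2.15-fold) were lower among the receptor and JAK-STAT genes. Mavs, the adaptor of the RNA sensors, was 2.30-fold higher with DOX.

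Without DOX, the MEFs labelled KO had lower values than WT MEFs for 8 of 22 members above the floor and higher values for 0. The background was 7.07% lower and 6.99% higher. The 8 were Ifit3 (-2.78), Ifit1 (-2.68), Trim30a (-2.67), Rtp4 (-2.60), Usp18 (-2.00), Oasl2 (-1.69), Lgals3bp (-1.38, 2.60-fold) and Eif2ak2 (-1.07). Ifit1 read 5.04 in MEFs labelled KO and 7.72 in WT MEFs. Effectors had a class median of -1.41 with all 11 below 0, and sensors one of -0.59.

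Antigen processing members were not 2-fold apart in this comparison. Tap1 read 8.35 in MEFs labelled KO and 7.54 in WT MEFs, a difference of 0.81. Psmb9, the immunoproteasome subunit whose start lies beside that of Tap1, read 7.84 and 7.02, the first in MEFs labelled KO, also a difference of 0.81. Psmb8, under the floor on both arrays, was at -0.35, and Tapbp was at -0.65. The class median was 0.23, with 2 members above 0 and 2 below.

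None of the pathway's transcription factors Irf7, Stat2 and Irf9 counted as 2-fold apart in these MEFs. Irf7 differed by -1.19 with both arrays under the floor, Stat2 by -0.68 and Irf9 by -0.46. The sensor Ifih1 differed by -1.06, also under the floor on both arrays. Macrophage markers were lower in 17 of 18 cases, with log2 summed levels of 11.83 in MEFs labelled KO and 14.21 in WT MEFs. Epithelial markers were at least 2-fold higher in MEFs labelled KO in 4 of 5 cases over the floor, and pluripotency markers in 3 of 4. The part of these markers' cells was not tested. The 2605 genes under the floor on all 6 Utx arrays had a median difference of 0.42 here, opposite in sign to that of the 11 members among them (-0.59). Of further interferon-induced genes above the floor, 5 of 21 were lower, namely Ccl5 (at least 10.9-fold), Ifi203, Cxcl10, Irgm1 and Ifi27l2a.

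**Figure D5:**
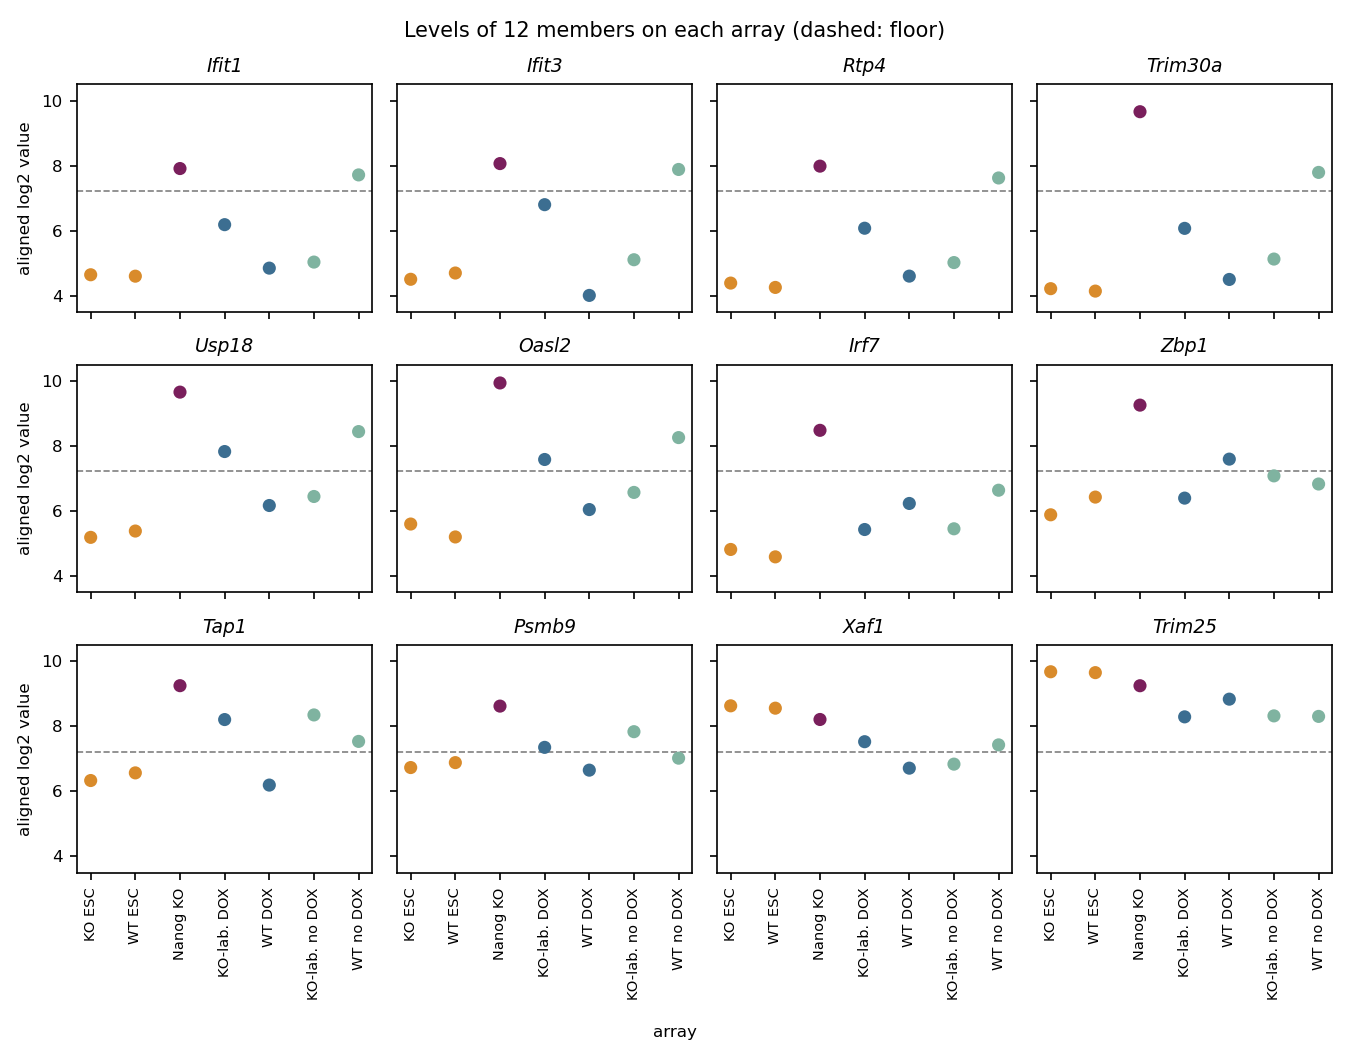
Aligned log2 value of 12 members on each array, ESCs in orange, the Nanog KO fibroblasts in purple, MEFs with DOX in blue and MEFs without DOX in green, with the floor as a dashed line. Ifit1, Ifit3 and Rtp4 exceed the floor in the Nanog KO fibroblasts and WT MEFs without DOX, whereas Tap1 also does in both MEF libraries labelled KO.

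With DOX, the MEFs labelled KO had higher values than WT MEFs for 8 of 21 members above the floor and a lower value for 1. Among all genes 14.8% were higher and 11.8% lower. Lgals3bp was 5.25-fold higher, Ifitm3 2.74-fold and Ddx58 2.55-fold, and Tap1 (2.02), Usp18 (1.66), Oasl2 (1.54), Irf1 (1.51) and Stat2 (1.04) were the others. Zbp1 was the lower one, at 6.40 in MEFs labelled KO and 7.60 in WT MEFs. Irf9 differed by 0.98, while Ifih1 (0.59), Irf7 (-0.80), Ifit1 (1.34) and Psmb8 (2.29) were under the floor on both arrays.

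Effectors were above 0 in 11 of 11 cases, with a median of 1.45, against 0.02 over all genes. Of 8 macrophage markers above the floor 6 were higher in MEFs labelled KO, where their log2 summed level was 12.40, against 10.91 in WT MEFs. Fibroblast markers were higher in 10 of 12 cases and epithelial markers lower in 11 of 11. The part of these markers' cells was not tested. Since both libraries labelled KO go against their DOX labels for Pou5f1 and the epithelial markers, this comparison holds for the labels as given.

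Between the 2 libraries labelled KO, 4 of 19 members over the floor had at least 2-fold higher values with DOX than without, and 0 had lower ones, where 5.01% of all genes were higher and 3.94% lower. Samd9l, an antiviral factor that restrains translation, read 7.82 with DOX and 5.69 without. Usp18 read 7.83 with DOX and 6.45 without, Eif2ak2 8.28 with DOX and 7.05 without, and Oasl2 7.59 with DOX and 6.57 without. All 4 lay under the floor without DOX. Ifit1 (1.15), Ifih1 (0.87), Psmb8 (0.54) and Irf7 (-0.02) stayed under it on both arrays, while Stat2 differed by 0.74, Irf9 by 0.43 and Tap1 by -0.14. Macrophage markers were 2-fold higher in 4 of 8 cases and lower in 1, and epithelial markers were lower in 5 of 5. Their part was not tested.

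The Nanog KO fibroblasts had the highest values of the series for most members. Against WT MEFs with DOX, all 36 members were higher on the Nanog KO array, with 25 of 32 over the floor at least 2-fold higher and 0 lower. Among all genes 13.1% were higher and 13.3% lower, with a median of 0.02. Since the members were chosen with earlier results of these data known, this contrast is a description only. The median over the 36 members was 1.62. These cells also differ from the WT MEFs in origin, Nanog genotype and the way the factors were delivered. Their single array had a higher deposited median (8.55), and whether it was normalized jointly with the Utx arrays is not given. Differences of cells and of array processing cannot be told apart here.

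All 4 classes took part. Among effectors Ifit3 read 8.07 in the Nanog KO fibroblasts and 4.01 in WT MEFs with DOX, Oasl2, a 2'-5' oligoadenylate synthetase-like gene, read 9.94 there and 6.05 in WT MEFs, and Lgals3bp was 12.9-fold higher. Among regulators Trim30a read 9.66 in the Nanog KO fibroblasts and 4.50 in WT MEFs, Usp18 9.66 against 6.17, and Irf7 8.48 against 6.23. Their lower sides lay under the floor, so the folds are at least 5.42 for Trim30a, 5.40 for Usp18 and 2.39 for Irf7. Irf9 was 2.88-fold higher and Stat2 at least 2.23-fold.

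The sensors Oas2, which makes the messenger that activates RNase L, Ifih1 and Zbp1 were at least 3.10-fold, at least 1.90-fold and 3.16-fold higher in the Nanog KO fibroblasts. Of the antigen processing members Tap1 was at least 4.08-fold higher, Psmb9 at least 2.64-fold and Psmb8 at least 1.08-fold, while Tapbp differed by 0.32. Ifit1 differed by 3.06, at least 1.61-fold. The smallest differences were those of Eif2ak2 (0.17), Tapbp (0.32), Oasl1 (0.33) and Trim25 (0.41).

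Against WT MEFs without DOX, in which many members were already above the floor, 14 of 32 members were at least 2-fold higher in the Nanog KO fibroblasts and 0 lower, with 9.41% of all genes higher and 11% lower. The class medians differed. Sensors had a median of 1.14, regulators one of 0.999 and antigen processing members one of 1.04, whereas effectors had one of 0.39. Only Oasl2 (3.21-fold) of the effectors above the floor was 2-fold higher. Both comparisons share the Nanog KO array.

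Among the Ifit genes, Ifit1 differed by 0.20 between these 2 libraries, Ifit3 by 0.18, and Ifit2, under the floor on both, by 1.05. Ifit1 read 7.91 in the Nanog KO fibroblasts and 7.72 in WT MEFs without DOX, and Ifit3 read 8.07 and 7.89, the Nanog KO value first. Zbp1 by contrast read 9.26 in the Nanog KO fibroblasts and 6.83 in WT MEFs without DOX, at least 4.10-fold higher. Oas2 (at least 3.10-fold), Trim30a (3.65-fold), Irf7 (at least 2.39-fold), Tap1 (3.28-fold), Dtx3l (3.12-fold), Psmb9 (at least 2.64-fold) and Ifih1 (at least 1.90-fold) were higher as well. Psmb8 differed by 0.41, Irf9 by 0.52 and Stat2 by 0.50.

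Markers of other cell types differed in both comparisons. Against WT MEFs with DOX, 8 of 10 macrophage markers over the floor were at least 2-fold higher in the Nanog KO fibroblasts. The log2 summed levels of the macrophage markers were 13.08 in the Nanog KO fibroblasts and 10.91 in the WT MEFs. Against WT MEFs without DOX, 13 of 18 macrophage markers were at least 2-fold lower in the Nanog KO fibroblasts and 0 higher. Their summed levels were 13.08 in the Nanog KO fibroblasts and 14.21 in the WT MEFs. Epithelial markers in the Nanog KO fibroblasts were at least 2-fold lower in 11 of 11 cases against WT MEFs with DOX and higher in 5 of 5 against WT MEFs without DOX. Fibroblast markers were higher in 9 of 12 cases against WT MEFs with DOX, and against WT MEFs without DOX 2 of 12 were higher and 3 lower. The part of these markers' cells in the members' values was not tested. At the low end of the array, the 2605 genes under the floor on all 6 Utx arrays differed by a median of 0.24 from WT MEFs with DOX and by 0.22 from WT MEFs without DOX. The 11 members among them differed by 1.95 and 1.06.

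Further pathway genes in the Nanog KO fibroblasts followed in part. Against WT MEFs with DOX, 12 of 24 further interferon-induced genes above the floor were higher and 0 lower, including Sp100, a nuclear body protein (3.92), Irgm1, an immunity-related GTPase (3.47), and Ifi203 (3.28). Against WT MEFs without DOX, 5 of 24 were higher, among them the guanylate-binding protein Gbp7 (2.82), and 2 were lower, namely Ccl5 (-2.11) and Ifitm1 (-1.34). Of the receptor and JAK-STAT genes Ifnar2 (2.52-fold) and Ifngr2 (3.18-fold) were higher than in WT MEFs with DOX. Of 16 interferon genes 4 had rows of their own. The highest value among these was 7.70, for Ifnz in the Nanog KO fibroblasts, against 6.51 in WT MEFs with DOX.

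Over the 3 pairs of KO and WT libraries together, no member passed the test between genotypes. In a limma fit of the 6 Utx arrays with context as a term, 0 of 25 members and 0 of 10957 genes (0%) passed a Benjamini-Hochberg adjusted p of 0.05. At an unadjusted p of 0.05 there were 0 members and 188 genes. The fit's 2 residual degrees of freedom come from how far KO minus WT varied among the contexts. Those contexts follow the DOX labels, which the 2 MEF libraries labelled KO go against for Pou5f1. Even Kdm6a, lower in all 3 pairs, did not pass (-1.43 ± 0.24, SE; adjusted p = 0.987 by limma). The fit therefore cannot decide whether members differ between genotypes. The largest member effect was that of Tap1, at 0.87 ± 0.51 (SE; adjusted p = 0.987 by limma). Tap1 was higher in the MEFs labelled KO in both MEF pairs and differed by -0.24 in ESCs. The median over the 25 members was -0.06, and 16 lay below 0.

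Members with ISRE letters in the promoter window had larger differences between MEF libraries than members without in some comparisons and not in others. With DOX in WT MEFs the 12 with the letters had a median of -1.47 and the 17 without one of -0.44. In MEFs labelled KO against WT without DOX the medians were -0.97 and -0.19, with the letters first. For the Nanog KO fibroblasts against WT MEFs with DOX they were 1.57 with the letters and 1.54 without. Against WT MEFs without DOX the members without the letters had the larger median, 0.94, and those with them 0.34. These medians are descriptions over members and carry no test.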

How the data were processed

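RNA from 7 samples was hybridised to 1 array each, and groups were taken from the labels. Per the submitters' processing notes, RMA in Affymetrix Expression Console gave the log2 values that the authors deposited. Its version and the genome build are not given here. The table held 21811 rows with 0 missing values. Rows were named through the platform annotation: 14894 had 1 symbol, 5992 are unnamed here, and the 925 with several symbols were not used. IDs of 14854 named rows were found in RefSeq (GRCm38.p6). The highest-mean row stood for each of 13562 genes. The members, roles and other lists were chosen with earlier results of these data known.

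Array medians were aligned, because the Nanog KO array had a higher one. Arrays have no sequencing depth, and 1 array per condition limits the precision. Pairs of arrays were compared by log2 difference, with a floor at the 40th percentile. The text gives the members with the largest 2-fold differences in each role class (up to 3), always Irf7, Irf9, Stat2, Ifit1, Ifih1, Psmb8 and Tap1 (Isg15 had no row), and other genes from the pathway and marker lists. Further members are named where a count is spelled out.

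limma 3.58.1 in R 4.3.3 (lmFit, eBayes with trend) compared 2 ESC with 4 MEF arrays, and KO with WT with context as a term, for 10957 genes whose highest Utx array exceeded the floor, with Benjamini-Hochberg adjustment. The p-values of the ESC minus MEF fit set the difference against the spread between arrays that differ in genotype or DOX. Those of the genotype fit set it against how far KO minus WT varied among the contexts. Both fits were tested on simulated data with 10957 genes. Of 50 genes changed by 1 on the log2 scale the ESC minus MEF fit recovered 35 and the genotype fit 26. Of 50 changed by 2 they recovered 50 and 49, and false calls were 13 and 10. The simulated noise held no DOX differences and no differences of the genotype effect between contexts, which the real residuals hold. In the real genotype fit the SE was 0.51 for Tap1 and 1.32 for Ifit3. The simulated counts therefore do not give the recovery in the real data. Promoter letters were searched on both strands of RefSeq promoters. Python 3.11.15, numpy 2.4.6, pandas 2.3.3 and matplotlib 3.10.9 did the rest. Alternatives covered scaling, the floor, the row rule, the variance prior and the arrays in the fit.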

Additional observations from a re-analysis of the deposited data

Results flagged for a closer look

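Members 2-fold or more apart in opposite directions in 2 contexts were singled out for a closer look, and in none was the difference between the contexts tested, since each rests on 1 array per condition. DOX went with lower Usp18 in WT MEFs (-2.27) and higher Usp18 in MEFs labelled KO (1.38), and Oasl2 differed by -2.21 and 1.01 in the same order. Between MEFs labelled KO and WT MEFs, Usp18 stood at -2.00 without DOX and 1.66 with DOX. Oasl2 stood at -1.69 and 1.54 in that order, and Lgals3bp at -1.38 and 2.39. All 5 involve the 2 MEF libraries labelled KO, whose Pou5f1 values go against their DOX labels.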

How the results depend on the processing

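No paired analysis was possible because the labels give no replicate numbers to pair by, and only the genotype fit, with context as a term, sets KO against WT within contexts. No median or called member changed sign under any alternative run, and counts and medians stayed within 1.5 times or 0.25 in 117 repeats and moved further in 29. With no floor, more members were 2-fold apart: 1 lower in KO ESCs, 13 lower in MEFs labelled KO without DOX, 15 higher in MEFs labelled KO with DOX, 7 higher with DOX among MEFs labelled KO, and 18 lower in WT ESCs than in WT MEFs. With the floor at the 60th percentile (8.36) these became 2 lower in MEFs labelled KO without DOX, 3 higher and 0 lower in MEFs labelled KO with DOX, 0 with DOX among MEFs labelled KO, 4 lower in WT ESCs and 6 lower with DOX in WT MEFs. At that floor 16 were higher in the Nanog KO fibroblasts than in WT MEFs with DOX and 9 than in WT MEFs without DOX. Deposited values, unaligned, gave Nanog KO medians of 2.36 against WT MEFs with DOX and 1.55 against WT MEFs without DOX, with 30 members higher in the second. Quantile normalization gave 1 member lower in KO ESCs. Over members above the floor, the DOX median in WT MEFs was -1.25. In the ESC minus MEF fit, no filter gave 5 lower members, the Nanog KO array as a further fibroblast array gave 1 higher, and leaving out 1 array gave 0 to 2 higher and 0 to 9 lower. Leaving out both MEF libraries labelled KO, an alternative chosen after seeing the data, gave 0 higher and 1 lower. Adjusted p over the alternatives ran from 0.00231 to 0.161 for Trim25, 0.00983 to 0.2 for Xaf1, 0.00965 to 0.187 for Ifi35, 0.0212 to 0.253 for Tapbp and 0.00363 to 0.29 for Lgals3bp. The mean over a gene's rows changed no member, each having 1 row.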
